A study of Mus musculus with 44 samples.

Results

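The comparison set Dppa2/4-/- two-cell mouse embryos against their Dppa2/4+/- littermates, 15 of the 44 single-embryo RNA-seq libraries of the series, and was made with 10 null and 5 heterozygous embryos. These are all the embryos from Dppa2/4 maternal knockout females (Dppa2/4m-) mated with Dppa2/4+/- males, from 2 of the 6 matings sequenced, called litter 1 and litter 2 here. The other embryos of the series, from wild-type males or wild-type parents, contain no null animals beside heterozygous ones and were not compared here. Both genotypes therefore came from the same kind of mother: C57Bl/6 females carrying floxed alleles in which Zp3-Cre, active in growing oocytes, had deleted the genes before fertilisation. The null embryos also inherited the deletion from the sire, whereas the heterozygous embryos received a wild-type paternal copy. As labelled, the genotypes thus differ in the zygotic supply of Dppa2 and Dppa4, with the maternal supply missing from every embryo. The comparison says nothing of embryos whose mothers had an intact locus. The embryos came from natural matings, and each library is 1 whole embryo.

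Litter 1 held 4 heterozygous and 3 null embryos, and litter 2 held 1 heterozygous and 7 null embryos. Genotype and litter were therefore unevenly mixed, and every difference below is a null minus heterozygous difference within litters, on the log2 scale, from a linear model with the litter as a term. Litter 1 carried 66.2% of the weight of that estimate and litter 2 the remaining 33.8%, and in litter 2 it rests on the single heterozygous embryo, HET2e. The study assigned these embryos to a genotype by their Dppa2 and Dppa4 transcripts, and the labels give no independent genotype. The levels of these genes therefore describe the sorting and were left out of every count except where stated.

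Dppa2 and Dppa4 are small nuclear proteins with a SAP domain that bind each other and associate with euchromatin. In mouse embryonic stem cells they activate Dux, a transcription factor that switches on genes of zygotic genome activation (ZGA), the first burst of transcription from the embryo's own genome, which in mice peaks at the two-cell stage. They also hold the promoters of developmental and some germline genes in a permissive, bivalent state, in which COMPASS (H3K4 methylation) and Polycomb (H3K27 methylation) marks coexist. The questions put to the littermates were whether genes of these programmes, or any other gene, differed once the zygotic copies were gone.

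The 2 genes lie in tandem on the plus strand of chromosome 16 (GRCm38), Dppa4 at chr16:48283733-48294237 and Dppa2 at chr16:48303908-48319723. The deletion runs from upstream of Dppa4 exon 2 to downstream of Dppa2 exon 7, in the study's numbering, whose gene models are not given in the sources used here. By the GENCODE models, exon 1 of Dppa4 encodes the first 24 coding bases and stays on the null allele, and exon 2 (chr16:48287878-48287995) is the first to be removed. Dppa2 exon 7 of the 8-exon GENCODE model lies at chr16:48317288-48317483. If the study numbered by that model, it is the last exon removed and exon 8 stays. Under a model with fewer exons, exon 8 would be removed too. The 2 edges of the deletion in the coding sequence are shown because they define the allele that all 15 embryos carry. Capitals mark the exon removed under either reading, lower case marks coding bases of the neighbouring exon, and introns are left out:
Dppa4 exons 1 and 2: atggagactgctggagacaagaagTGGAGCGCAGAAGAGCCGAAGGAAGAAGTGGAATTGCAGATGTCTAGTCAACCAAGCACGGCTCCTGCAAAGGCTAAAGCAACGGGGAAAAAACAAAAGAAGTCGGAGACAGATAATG
Dppa2 exons 7 and 8: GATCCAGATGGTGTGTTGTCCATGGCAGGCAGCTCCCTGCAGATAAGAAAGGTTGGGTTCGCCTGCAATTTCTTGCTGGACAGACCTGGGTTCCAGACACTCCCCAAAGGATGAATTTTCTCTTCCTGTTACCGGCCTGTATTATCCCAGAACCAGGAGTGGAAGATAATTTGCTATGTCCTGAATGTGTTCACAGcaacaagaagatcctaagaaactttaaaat

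Dppa2 had 109, 112, 19 and 76 reads in the heterozygous embryos of litter 1 and 814 reads in HET2e. The null embryos of litter 1 had 7, 3 and 5 Dppa2 reads, and all 7 null embryos of litter 2 had 0. Dppa4 had 49, 42, 27 and 40 reads in the heterozygous embryos of litter 1 and 94 in HET2e. The genotypes did not overlap for either gene, and the few reads left in null embryos were split by litter. The 3 null embryos of litter 1 kept Dppa2 reads and had no Dppa4 read, whereas in litter 2 only Dppa4 was seen, with 4, 2 and 5 reads in HOMe, HOMh and HOMi. Pooled over litter 1, Dppa2 stood at 62.6 RPM (reads scaled to library size, the unit of the deposited values before their log2) in heterozygous and 3.39 RPM in null embryos, 18.5-fold lower (95% exact interval 11.0 to 33.4, counting error only). In litter 2 a count of 0 against 472 RPM sets the difference at 1138-fold or more when 3 reads over the group are taken as the limit. The exact interval, which counts the error of the heterozygous reads too, starts at 923-fold. For Dppa4 the pooled level was 31.3 RPM against 0 in litter 1, at least 46.2-fold by the limit of 3 reads (exact interval from 37.1-fold). In litter 2 it was 54.5 against 1.52 RPM, 35.8-fold lower (19 to 74). Which exons these residual reads came from cannot be read from values per gene.

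**Figure D1:**
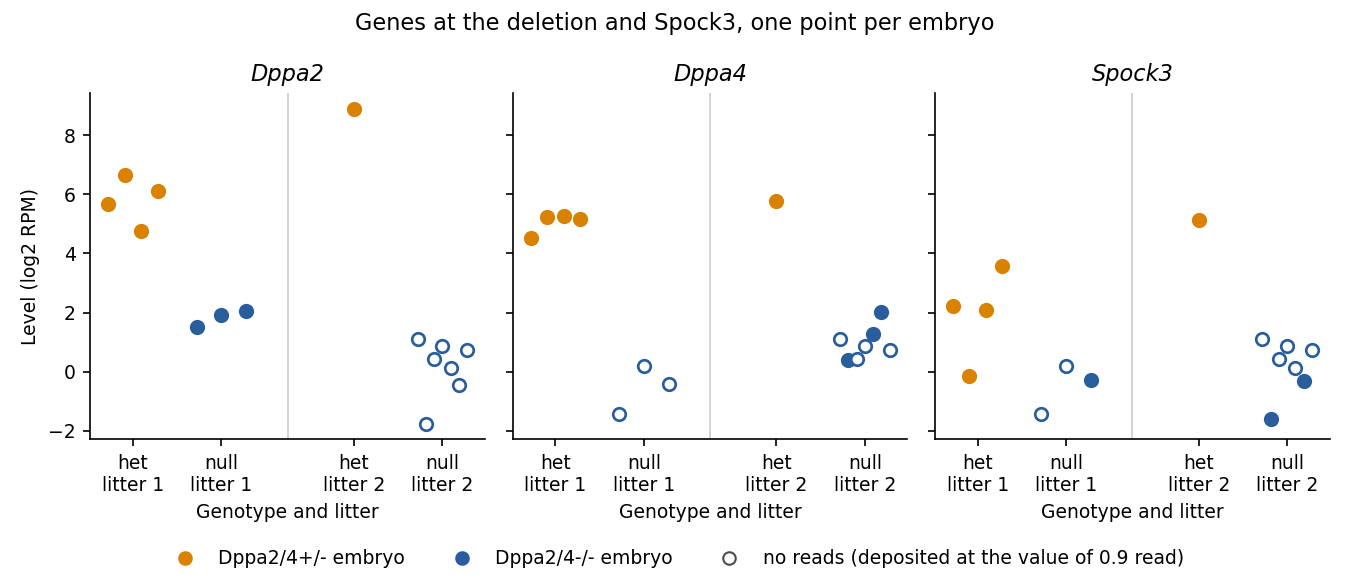
Level of Dppa2, Dppa4 and Spock3 in each of the 15 embryos (log2 RPM, vertical axis), by genotype and litter (horizontal axis); each point is 1 embryo and open points had no read. Dppa2 and Dppa4 separate the genotypes by construction. For Spock3 the other 4 heterozygous embryos lie above all null embryos, whereas HET2b, with 1 read, lies among the null embryos, whose open points stand at the value of 0.9 read and so move with depth.

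The null libraries held from 418558 to 3048642 reads and the heterozygous ones from 698469 to 2136068, with reads in 10726 to 13674 and 11633 to 13074 genes. In litter 2, HET2e was deeper than all its null littermates but HOMe. The within-litter differences gave exact permutation p = 0.896 for total reads and p = 0.382 for genes with reads (two-sided, 280 arrangements, smallest p 0.00357). Of 10 two-cell markers, 7 had reads in all 15 embryos, among them Zfp352, Tcstv3 and Klf17, and the 10 summed to 1680 to 3445 RPM in null and 1009 to 4219 RPM in heterozygous embryos. Cumulus and granulosa markers summed to at most 14.4 RPM, 9 of 19 being at 0 in all 15 libraries, Has2 and Fshr among them. Oviduct and blood markers summed to 67.7 to 207 RPM in null and 56.2 to 156 RPM in heterozygous embryos, mostly Epcam and Pecam1, while Ptprc and the haemoglobin genes Hbb-bs and Hbb-bt were at 0 and Hba-a1 had 8 reads in 2 null embryos and 1 read in 1 heterozygous embryo.

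No gene other than Dppa2 and Dppa4 passed an adjusted p of 0.05 between the littermates. The fit (limma on log2 RPM, Benjamini-Hochberg adjustment) covered 15716 genes with a mean of at least 0 log2 RPM, of which 0 were called (0%), and the smallest adjusted p was 0.77. At an unadjusted p under 0.05 there were 905 genes (5.76%), 797 higher (5.07%) and 108 lower (0.687%) in null embryos. Fitted on the recovered read counts (limma voom), with library sizes scaled by the upper quartile of reads, 1 gene was called, Spock3. At the unadjusted threshold 404 were higher and 459 lower. The count model and the scaling changed together in that fit.

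The excess of higher over lower genes depended on the scaling. The median difference over all genes was 0.39, that is, most genes stood slightly higher in RPM in null embryos. When each embryo was re-centred on its own median, the median difference became -0.02 and the 905 genes became 759 (4.83%), with 270 higher (1.72%) and 489 lower (3.11%). Raising all values to 1 common floor, so that genes without reads have the same value in every embryo, gave 783 genes (4.98%), 564 higher (3.59%) and 219 lower (1.39%) and a median of 0.18. Re-centring takes the same 0.41 off the difference of every gene, so any difference between 0 and 0.41 turns sign with it. This holds for the differences below of Pa2g4, Sp110, Pramel7, Usp7, Kmt2c, Brdt, Dppa3 and Ptov1, whose direction depends on the scaling. Beside it, the 100 most abundant genes took 19.4 to 38.1% of the reads in null and 22.1 to 38.7% in heterozygous embryos (exact permutation p = 0.0893), with the highest heterozygous share in HET2e.

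**Figure D2:**
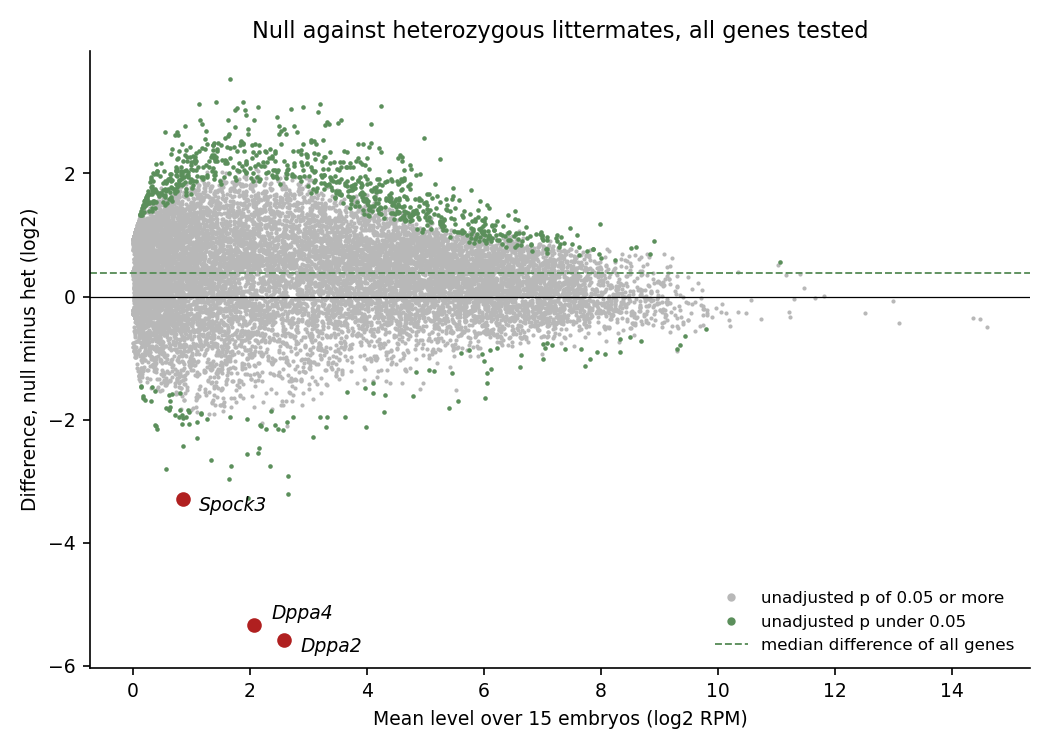
Difference between null and heterozygous littermates (log2, vertical axis) against the mean level over 15 embryos (log2 RPM, horizontal axis), 1 point per gene. Genes at an unadjusted p under 0.05 are green and the dashed line is the median of 0.39. Dppa2 and Dppa4 stand clear of the other genes, at -5.58 and -5.33, and the next lowest is Spock3 at -3.29.

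Genotype explained 8.85% of the variance within litters, summed over all genes tested, with an exact permutation p of 0.189 for genotypes exchanged within litters (one-sided). The median share over these exchanges was 7.05%. Over the 7160 genes with a mean of at least 3 log2 RPM, the median r in litter 1 was 0.764 between null embryos (3 pairs), 0.75 between heterozygous embryos (6 pairs) and 0.786 between a null and a heterozygous embryo (12 pairs). In litter 2 it was 0.746 between null embryos (21 pairs) and 0.699 between a null embryo and HET2e (7 pairs). Null embryos of different litters had a median r of 0.611. In litter 1, the closest littermate was of the other genotype for 6 of 7 embryos, and HOMa, HET2a and HET2b lay closest together, with r of 0.862 and 0.852. In litter 2 HET2e, which has no littermate of its own genotype, and HOMe were closest to each other (r = 0.795), and the other 6 null embryos were closest to a null embryo. These correlations are across genes and describe the libraries.

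The genotype differences of the 2 litters were only loosely related. Across the 15716 genes, the difference in litter 1 and that in litter 2 correlated with r = 0.04, and 56.1% of genes had the same sign, or 48.9% once each litter's median was taken off. Over the 7160 genes with a mean of at least 3 log2 RPM, r was 0.12 and 62.2% had the same sign, or 57.6% with the medians taken off. The median difference was 0.13 in litter 1 and 1.09 in litter 2, where every value is set against HET2e. Fitted alone, litter 1 gave no call and 255 genes at the unadjusted threshold (1.62%), 180 higher (1.15%) and 75 lower (0.477%). Litter 2 alone gave 10 calls (0.0636%), all higher in null embryos, among them Trak2, Sdf2l1, Eif2b2, Fbxo6 and Trib3, with the lone heterozygous embryo taken to vary as the null embryos do. Its unadjusted count was 1314 (8.36%), 1071 higher (6.81%) and 243 lower (1.55%). A test of the difference between litters (interaction of genotype and litter) called 0 genes, with 738 at an unadjusted p under 0.05 (4.7%). With values raised to the common floor it called 86 genes. HET2e also had the highest share of mitochondrially encoded transcripts of the heterozygous embryos, 25.2% against 7.14 to 16.8% in the other 4, within the range of its null littermates (8.44 to 25.2%). The part of that share in these calls was not tested.

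**Figure D3:**
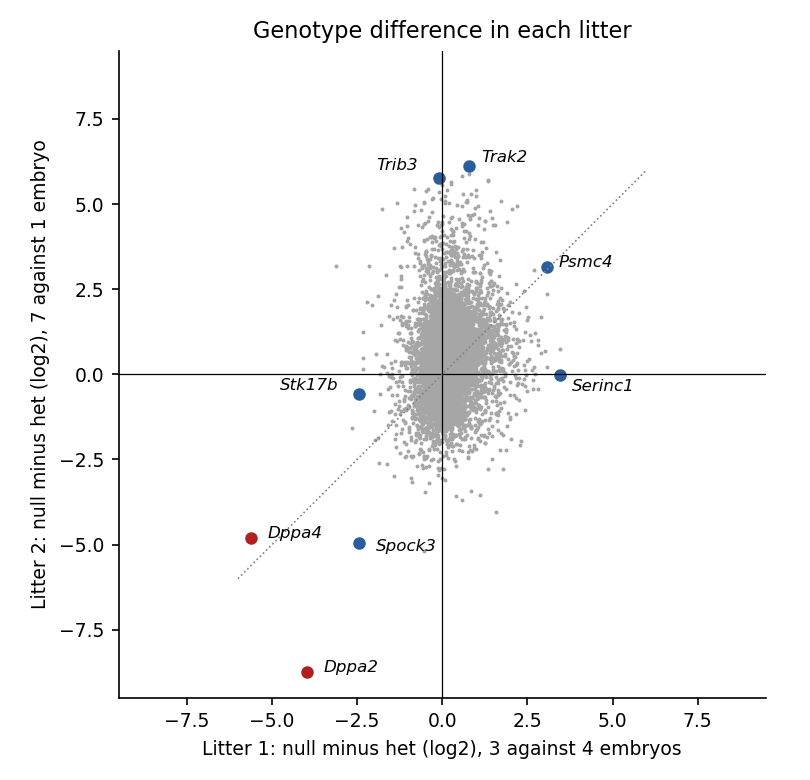
Null minus heterozygous difference in litter 2 (vertical axis, log2) against that in litter 1 (horizontal axis, log2) for genes with a mean of at least 3 log2 RPM (grey) and for labelled genes; the dotted line marks equality. Dppa2 (-3.96 and -8.74), Dppa4 (-5.61 and -4.80), Spock3 (-2.44 and -4.95) and Psmc4 (3.06 and 3.16) differ one way in both litters. The values of Serinc1 (3.44 and -0.01), Trak2 (0.77 and 6.10) and Trib3 (-0.11 and 5.75) are unlike in size. The interaction of genotype and litter called 0 genes in the main fit, and litter 2 values rest on HET2e.

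Spock3, which encodes a secreted calcium-binding proteoglycan of the testican family, had the lowest difference after the deleted genes. Its mean was -0.02 log2 RPM in null and 2.58 in heterozygous embryos. It thus passed the filter of a mean of at least 0 only through the heterozygous embryos. Its reads were 10, 1, 3 and 13 in the heterozygous embryos of litter 1 and 61 in HET2e, against 0, 0 and 1 in the null embryos of litter 1. In litter 2, HOMe and HOMi had 1 read each and the other 5 null embryos had none. With genes without reads taken as 0 RPM the genotypes did not overlap, with 0 to 0.831 in null and 0.902 to 35.3 in heterozygous embryos, and the narrow gap rests on HET2b and its 1 read. The difference was -3.29 ± 0.84 (SE), with an adjusted p of 0.77 by limma on log2 RPM and 0.00214 by limma voom, and over all settings it ran from 0.0021 to 1. Pooled reads gave 5.35 against 0.226 RPM in litter 1 (23.7-fold, exact interval 3.9 to 970) and 35.3 against 0.276 RPM in litter 2 (128-fold, 33.9 to 1080). Spock3 lies at chr8:62951009-63357103 and its probe overlaps those of Gm45461, Gm45516 and Gm45517, which the counting without strand cannot tell apart.

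Among genes with a mean of at least 3 log2 RPM, the 10 with the smallest p on the higher side were Fbxo6, Psmc4, Trak2, Zfp397, Phgdh, Relb, Sidt2, Cnnm4, Epb41l4b and Tdrd9. Their differences ran from 1.76 to 3.12 with unadjusted p of 2.9e-04 to 0.0017, and all 10 had an adjusted p of 0.77 (limma). Re-centred, all 10 still had an unadjusted p under 0.05. The genotypes overlapped for every one of them, and in 6 the lowest of the 15 values was that of HET2e. For Relb and Tdrd9 this is a tie at no reads, with HOMd and HET2b, as the value of such genes moves with depth. Without HET2e, which leaves litter 1 to carry the estimate, 6 of the 10 remained at an unadjusted p under 0.05. Fbxo6, Psmc4, Zfp397, Relb and Tdrd9 had heterozygous means of 2.53, 2.00, 1.46, 1.48 and 2.09 log2 RPM. They reached the mean of 3 only through the null embryos. All 10 were picked by their p here, so these counts are no independent evidence.

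Psmc4, an ATPase subunit of the proteasome's regulatory particle, differed alike in both litters, by 3.06 and 3.16. The heterozygous embryos stood at 1.91, 2.17, 3.69, -0.14 and 2.38 log2 RPM, and the null embryos from 2.09 through a median of 5.94 to 7.67. All but 2 of the null embryos were above every heterozygous one. Phgdh, the first enzyme of serine synthesis from glycolysis, stood at 2.99, 1.44, 2.84 and 3.03 log2 RPM in the heterozygous embryos of litter 1 and at 5.17 in HET2e. The null embryos ranged from 3.92 through 6.74 to 8.49, and 6 of 10 were above all heterozygous embryos. The difference was 2.23 ± 0.62 (SE), 2.51 in litter 1 and 1.68 in litter 2.

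Fbxo6, a substrate receptor of ubiquitin ligases for glycoproteins, stood at 1.71, 3.94, 3.52 and 4.25 log2 RPM in the heterozygous embryos of litter 1 and had 1 read in HET2e. The null embryos lay between 4.07 and 5.42, with a median of 4.77. All but HOMa were above every heterozygous embryo, but the difference was 1.33 in litter 1 and 5.70 in litter 2. Trak2, an adaptor that links mitochondria to motor proteins, was similar in kind, at 4.19, 4.55, 5.10 and 6.69 log2 RPM in litter 1 and 1 read in HET2e, against 4.60 to 6.35 in null embryos. Here no null embryo was above every heterozygous one, and the difference was 0.77 in litter 1 and 6.10 in litter 2. Epb41l4b also had its lowest level in HET2e, and Tdrd9 had no reads in HET2b and HET2e. Zfp397, a zinc finger gene, Relb, a subunit of NF-kB, Sidt2, a lysosomal membrane protein, and Cnnm4, a magnesium transporter, were above all heterozygous embryos in 9, 9, 9 and 7 of the 10 null embryos.

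On the lower side the 10 genes were Stk17b, Top2a, Cmpk1, Hnrnph2, Zbtb6, Ddx10, Zfp420, Mapk8, Dock11 and Lrr1, with differences of -0.85 to -2.28, unadjusted p of 0.0038 to 0.0143 and an adjusted p of 0.77 (limma). In 7 of the 10 the highest value was that of HET2e. Zbtb6 and Zfp420 had null means of 2.85 and 2.60 log2 RPM and reached the mean of 3 only through the heterozygous embryos. Dock11, an activator of the GTPase Cdc42, was the member whose genotypes did not overlap, with 6.59, 5.94, 5.33, 5.50 and 5.28 log2 RPM in heterozygous embryos and 0.72 to 5.11 in null embryos, 2 of which had no read. Its difference was -1.88 ± 0.72 (SE) and nearly equal in both litters, at -1.89 and -1.86.

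Mapk8, the stress kinase JNK1, stood at 9.09, 8.35, 8.12, 8.11 and 8.36 log2 RPM in heterozygous embryos and at 6.58, 7.26 and 8.47 as the lowest, median and highest of the null embryos. All null embryos but HOMa lay below every heterozygous one. Stk17b, a kinase of the death-associated family, stood at 7.24, 6.14, 6.07, 6.86 and 5.80 log2 RPM in heterozygous embryos and from 1.52 through 5.16 to 6.56 in null embryos. All null embryos but HOMe lay below every heterozygous one, and the lowest value was that of HOMa. Top2a (DNA topoisomerase II), Cmpk1 (a pyrimidine nucleotide kinase) and Lrr1 (a factor of replisome unloading) overlapped widely, with differences of -1.01, -1.12 and -0.85. The raw mean of Lrr1 was 7.39 log2 RPM in null and 7.37 in heterozygous embryos, so that its difference appears only within litters.

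**Figure D4:**
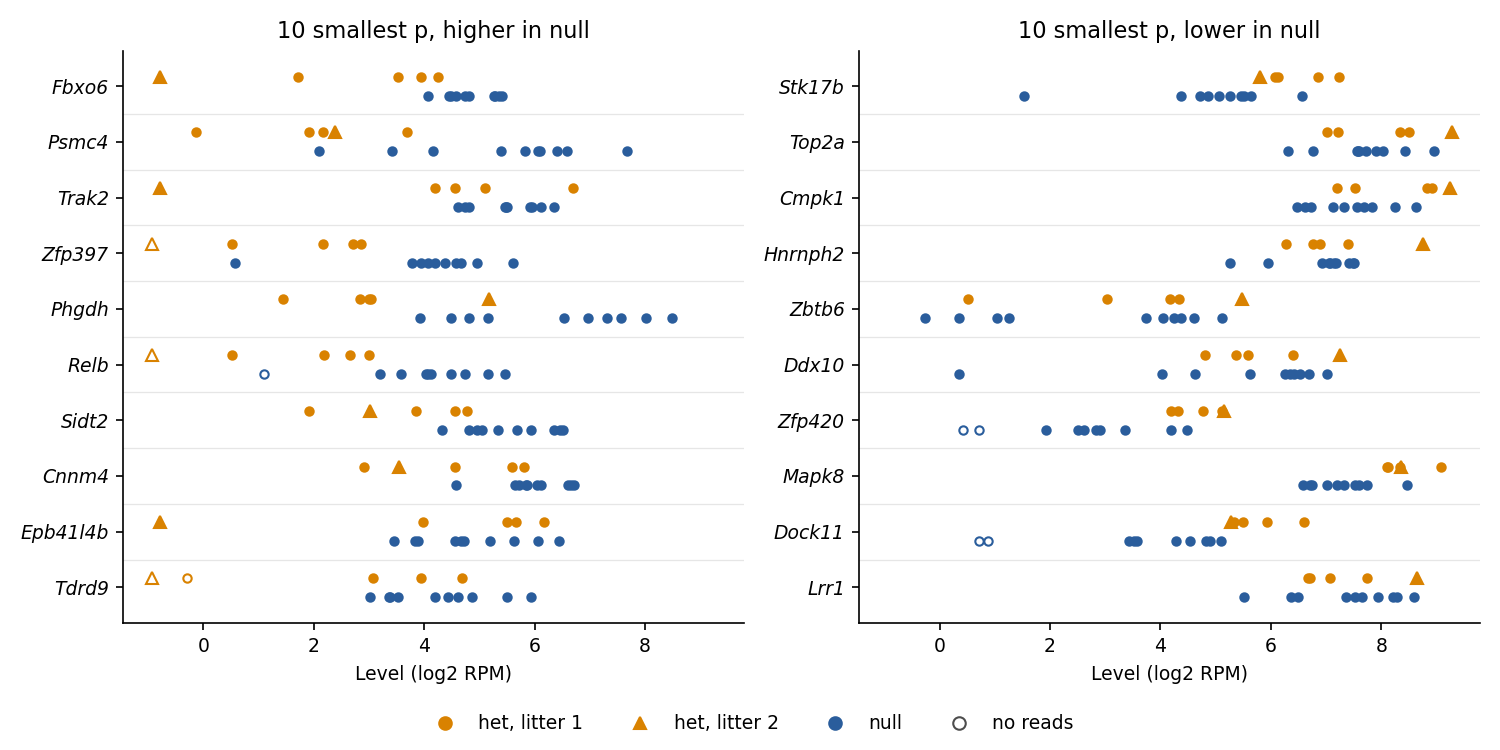
Level in each embryo (log2 RPM, horizontal axis) of the 10 genes with the smallest p in each direction among genes with a mean of at least 3 log2 RPM; orange points are heterozygous embryos (triangle, HET2e of litter 2), blue points null embryos, open points had no read. HET2e is the lowest of the 15 for 6 of the 10 genes on the left and the highest for 7 of 10 on the right. For Relb and Tdrd9 it ties at no reads with another embryo.

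Over all genes tested, the 2 genotypes did not overlap for 10 genes higher (0.0636%) and 3 lower (0.0191%) in null embryos, Dppa2 and Dppa4 left out. Apart from Spock3 and Dock11 they are named here after their values were seen. The higher ones included Atg13 (autophagy initiation), Wwtr1 (the Hippo pathway coactivator TAZ), Stat2 (interferon signalling), Atpif1 (the inhibitor of ATP synthase) and Exosc3 (a subunit of the RNA exosome). Atg13 ranged from 49.6 to 151 RPM in null and from 25.7 to 47.1 RPM in heterozygous embryos, a difference of 1.02. For Wwtr1 the ranges were 24.6 to 60.9 RPM and 7.49 to 19.8 RPM, a difference of 1.29. None had an adjusted p below 0.77 (limma).

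No gene of the major ZGA list compiled here passed the adjusted test between the genotypes. Of 40 members, all tested, 0 were higher and 1 was lower at an unadjusted p under 0.05, where 5.07% of all genes were higher and 0.687% lower, with a median difference of 0.28 (all genes 0.39). Re-centred the median was -0.13 and 4 were lower, where 3.11% of all genes were. The lower gene, Usp9x, is an X-linked deubiquitinase gene. It stood at 10.89, 10.88, 10.42, 10.51 and 9.91 log2 RPM in heterozygous embryos and at 8.70 to 10.72 in null embryos, 7 of which were below all heterozygous ones. The difference was -0.52 ± 0.23 (SE), with an adjusted p of 0.77 (limma). Npm1, a nucleolar chaperone, differed by -0.33 with a 95% interval of -0.85 to 0.18, and Pa2g4, a growth-associated ribosome factor, by 0.33 (-0.22 to 0.89). On the deposited scaling the intervals of 9 of the 40 lay within 1 log2 unit on both sides, and re-centred those of 15 did. Re-centred, the interval of Npm1 was -1.54 to 0.05 and that of Usp9x -1.70 to -0.17, both reaching past 1 log2 unit.

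Transcripts of the 2C-like state, which are targets of Dux or mark cells of the two-cell type, gave 37 genes tested of 41 listed, with none at an unadjusted p under 0.05 in either direction, where 5.07% of all genes were higher and 0.687% lower. Their median difference was 0.31, or -0.10 re-centred. Sp110 differed by 0.36 (95% interval -0.25 to 0.97) and Pramel7, a Prame-family gene, by 0.01 (-0.73 to 0.75). AF067063 differed by 0.80 (-0.09 to 1.70), as -0.03 in litter 1 and 2.44 in litter 2. Only 2 of the 37 had an interval within 1 log2 unit on both sides, and members of the Zscan4, Usp17l and Tdpoz families share sequence, so that the mapping-quality filter may have removed their reads unevenly. The Dux gene itself, listed as Duxf3, had 1 read in HET2a and 1 in HOMb and was not tested.

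Regulators of Dux gave 28 genes tested of 29, with Trp53 higher (3.57%, against 5.07% of all genes) and none lower at the unadjusted threshold. The median was 0.13, or -0.29 re-centred. Without HET2e 0 were higher, where 302 of all 15716 genes were. Without HOMa 3 were, Trp53, Mbd3 and Hdac1, where 1865 of all 15716 genes were. Smarca5, a chromatin remodeller that Dux activation requires in stem cells, differed by -0.28 (95% interval -0.94 to 0.38). Usp7 differed by 0.01 (-0.55 to 0.58) and Ncl, a nucleolar repressor of Dux, by -0.22 (-0.81 to 0.36).

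Maternal transcripts, laid down in the oocyte and cleared after fertilisation, gave 43 tested of 44, with Mos, the meiotic arrest kinase, higher at the unadjusted threshold (2.33%, against 5.07% of all genes) and none lower. Their median was 0.26, or -0.15 re-centred, where 0 were higher and 2 lower, against 1.72% and 3.11% of all genes. Omt2b, Omt2a and Oog3 differed by -0.02 (95% interval -0.49 to 0.45), -0.05 (-0.53 to 0.43) and -0.33 (-0.96 to 0.30). Mos had 0, 0, 0 and 3 reads in the heterozygous embryos of litter 1 and 0 in HET2e. In the null embryos it had between 0 and 22 reads. The mean of Mos was 1.44 log2 RPM in null and -0.14 in heterozygous embryos. It thus passed the filter of a mean of at least 0 only through the null embryos.

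COMPASS and Polycomb subunits gave 40 tested of 41, with 4 higher (10%, against 5.07% of all genes) and none lower at the unadjusted threshold. Among them were the H3K4 methyltransferase genes Kmt2b and Kmt2d, and Asxl1, of the Polycomb deubiquitinase. The median was 0.13, or -0.29 re-centred, where 2 of the 4 stayed at an unadjusted p under 0.05 and 1.72% of all genes were higher. Kmt2d stood at 8.48, 7.52, 10.18 and 10.06 log2 RPM in the heterozygous embryos of litter 1, 6.70 in HET2e, and 8.14 to 9.87 in null embryos. The spread within 1 genotype of litter 1 was thus wider than the difference between genotypes there, which was 0.20 against 2.27 in litter 2. Kmt2c, Suz12 and Bmi1 differed by 0.02 (95% interval -0.47 to 0.51), -0.38 (-0.92 to 0.16) and -0.48 (-1.12 to 0.15).

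Developmental genes with bivalent promoters were mostly silent or nearly so. Of 72 members, 50 had a read in some embryo and 31 passed the filter on low values. Of these 2 were higher (6.45%, against 5.07% of all genes) and none lower at the unadjusted threshold. After re-centring 0 were in either direction, where 1.72% of all genes were higher and 3.11% lower. Tbx3, a T-box factor also counted among the pluripotency factors, was one of them and differed by 1.05 ± 0.45 (SE), or 0.63 re-centred. Gata4 and Tfap2c differed by 0.54 (95% interval -0.34 to 1.41) and 0.54 (-0.53 to 1.60), the latter as -0.27 in litter 1 and 2.11 in litter 2. Many of these genes had hardly any reads, and 31 of the 72 were tested, so that these counts say nothing of the others.

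Germline genes gave 30 tested of 34, with 1 higher (Tdrd9, a piRNA-pathway helicase) and 2 lower (Sycp3, of the synaptonemal complex, and the meiotic gene Hormad2) at the unadjusted threshold, where 5.07% of all genes were higher and 0.687% lower. The median was -0.18 where all genes had 0.39, and 12 of the 30 were above 0. Without HOMa the median was 0.03 (all genes 0.58) and without HET2e -0.07 (all genes 0.13). Re-centred, the median was -0.59, with 1 higher and 5 lower, where 1.72% of all genes were higher and 3.11% lower. Without HET2e, 1 germline gene was higher (Slc25a31, a sperm ADP/ATP carrier) and none lower, where 302 of all 15716 genes were higher and 112 lower. Sycp3 stood at 7.45, 7.09, 5.38 and 4.77 log2 RPM in the heterozygous embryos of litter 1 and at 8.40 in HET2e, with 3.98 to 7.60 in null embryos. Its difference of -1.18 ± 0.55 (SE) was -0.54 in litter 1 and -2.44 in litter 2. Brdt and Dazl differed by 0.03 (95% interval -0.55 to 0.61) and -0.11 (-0.85 to 0.63).

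Pluripotency factors gave 25 tested of 27, with Tbx3 alone at the unadjusted threshold (4%, against 5.07% of all genes higher) and a median of 0.40, or -0.01 re-centred. Without HET2e 0 were higher, where 302 of all 15716 genes were. Without HOMa 5 were, Pou5f1 and Dppa3 among them, where 1865 of all 15716 genes were. Pou5f1, Sall4 and Dppa3 differed by 0.71 (95% interval -0.26 to 1.69), 0.62 (-0.23 to 1.47) and 0.40 (-0.20 to 1.00).

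The p53 and stress list held the largest share of genes at the unadjusted threshold. Of 25 tested of 30 listed, 6 were higher (24%, against 5.07% of all genes) and Hspa1b, an inducible heat shock gene, was lower, and none was called after adjustment. The 6 were Trp53, its target Cdkn1a, the antiproliferative gene Btg2, the stress sensor gene Sesn2, and Atf4 and Trib3 of the integrated stress response. The median difference, 0.42, was close to the 0.39 of all genes. Re-centred it was 0.00 with 2 higher and 2 lower, where 1.72% of all genes were higher and 3.11% lower. Without HET2e none of the 25 was higher and Hspa1b was lower at the unadjusted threshold. In that fit 302 of all 15716 genes were higher and 112 lower.

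Cdkn1a, the cyclin-dependent kinase inhibitor p21, stood at 4.07, 3.55, 4.91, 4.81 and 3.67 log2 RPM in heterozygous embryos. The null embryos ranged from 4.60 through 6.14 to 7.14, and all but HOMa were above every heterozygous embryo. The difference was 1.59 ± 0.50 (SE), 1.03 in litter 1 and 2.69 in litter 2, and 1.18 re-centred, with an adjusted p of 0.77 (limma; 0.17 to 1 over all settings). Trp53 stood at 1.71, 1.44, 3.10, 4.67 and 2.02 log2 RPM in heterozygous embryos and from 3.30 through 3.94 to 7.04 in null embryos, a difference of 1.95 ± 0.75 (SE) in which 4 null embryos were above all heterozygous ones. Trib3 stood at 4.15, 4.31, 4.84 and 5.47 log2 RPM in litter 1 and had 1 read in HET2e, which gave -0.11 in litter 1 and 5.75 in litter 2. Hspa1b had 27, 7, 9, 16 and 13 reads in heterozygous embryos, while 3 null embryos had none and 2, HOMf and HOMg, exceeded all heterozygous embryos in RPM.

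**Figure D5:**
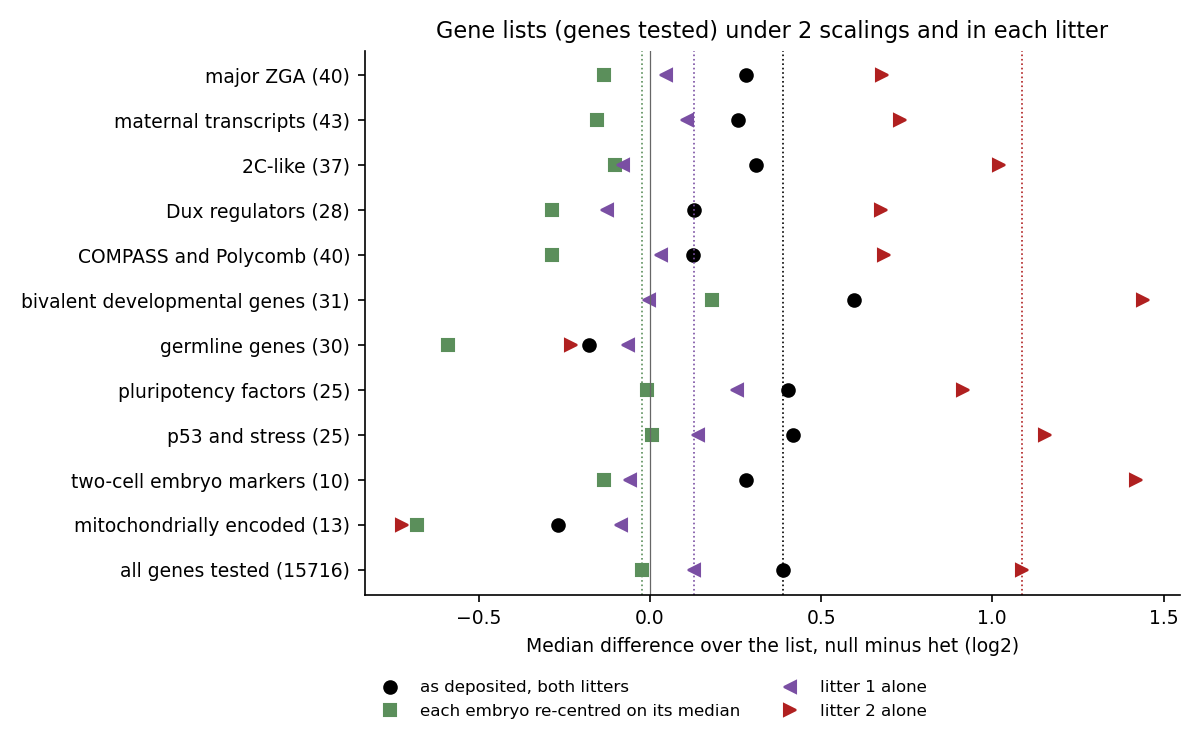
Median null minus heterozygous difference (log2, horizontal axis) of each gene list (rows, genes tested in brackets) as deposited, after re-centring each embryo, and in each litter alone; dotted lines are the same medians over all genes. As deposited, the germline list (-0.18) and the mitochondrially encoded genes (-0.27) lie below 0 and the other lists drawn between 0.13 and 0.59, and in litter 1 alone the lists drawn lie between -0.13 and 0.25.

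The list counts leaned on single embryos. Without HET2e, 302 of all 15716 genes were higher and 112 lower at an unadjusted p under 0.05, and without HOMa 1865 were higher and 190 lower. The major ZGA list had 0 higher and 0 lower without HET2e, and 5 and 2 without HOMa. For maternal transcripts the counts were 0 and 0 without HET2e, and 11 and 0 without HOMa, Zp3, Gdf9 and Padi6 among them. COMPASS and Polycomb subunits had 1 and 0 without HET2e, and 8 and 1 without HOMa, and the p53 and stress list kept 6 and 1 without HOMa.

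The 13 mitochondrially encoded genes had a median difference of -0.27, or -0.68 re-centred, with 2 above 0 and none at the unadjusted threshold. Without HOMa 3 were lower at that threshold, mt-Nd5, mt-Co1 and mt-Cytb, where 190 of all 15716 genes were. Without HET2e none was, where 112 of all 15716 genes were. mt-Co1 differed by -0.49 with a standard error of 0.25, as -0.16 in litter 1 and -1.14 in litter 2. Their share of all reads was 7.88 to 25.2% in null embryos and 7.14 to 25.2% in heterozygous embryos (exact permutation p = 0.196).

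The study singled out 5 genes in its comparisons with wild-type embryos, and since embryos of these litters entered that choice they are no independent evidence here. Serinc1, a carrier protein for serine in membrane lipids, had 1, 20, 3 and 17 reads in the heterozygous embryos of litter 1 and 70 in HET2e. The null embryos had 7 to 176 reads. The difference was 2.27 ± 0.74 (SE; adjusted p of 0.77, limma), made of 3.44 in litter 1 and -0.01 in litter 2. Fbxw4, Gm17018, Lmo1 and Ptov1 differed by 0.50, 0.45, 0.55 and 0.17, each negative in litter 1 and positive in litter 2. Fbxw4 and Gm17018 overlap on opposite strands and were counted without strand. Lmo1, a LIM-domain cofactor, stood at 6.88, 6.84, 9.10 and 8.60 log2 RPM in the heterozygous embryos of litter 1, so that littermates of 1 genotype differed more from each other than the genotypes did.

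Of the 11 genes within 1 Mb of the deletion, 6 had reads and 4 were tested. Dzip3, a ubiquitin ligase gene at chr16:48924232-48994165, had a difference of -1.24 ± 0.50 (SE), with unadjusted p = 0.0178 and an adjusted p of 0.77 (limma). It stood at 8.32, 6.39, 5.88 and 5.95 log2 RPM in the heterozygous embryos of litter 1 and 8.12 in HET2e, and at 4.09, 5.60 and 6.80 as the lowest, median and highest of the null embryos. The genotypes overlapped, and the difference was -0.49 in litter 1 and -2.72 in litter 2. Its divergent neighbour Cip2a, an inhibitor of protein phosphatase 2A, differed by -0.00 (95% interval -0.86 to 0.86). Morc1, which acts in transposon silencing in male germ cells, differed by -0.56 (-2.60 to 1.48) and the gene model Gm5485 by 0.42 (-0.96 to 1.79). Retnla, Retnlb, Retnlg, Trat1 and 1700026J12Rik had no reads in any of the 15 embryos.

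Several of the lower genes, Usp9x, Hnrnph2 and Dock11, are X-linked. Of the 108 genes lower at the unadjusted threshold 14 were on the X chromosome, of the 797 higher 17 (2.13%), and of all genes tested 3.35%, with a median difference of 0.08 for X-linked and 0.40 for other genes. Reads from sex-linked genes differed between embryos. Summed over 9 Y-linked genes, HET2a and HET2c of the heterozygous embryos had 589 and 56 reads and the other 3 had none. In null embryos HOMb, HOMc, HOMe, HOMf and HOMg had 42 to 294 reads, HOMh and HOMj had 3 and 1, and the other 3 had none. Xist, the RNA that coats the inactive X chromosome, had 9, 1 and 295 reads in HET2b, HET2d and HET2e, and 1 to 216 in HOMa, HOMd, HOMh, HOMi and HOMj. The part of sex in the X-linked differences was not tested.

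How large a difference these embryos could show depended on the level of the gene. The median standard error was 0.86 for genes with a mean of 0 to 3 log2 RPM, 0.64 for 3 to 6, 0.38 for 6 to 9 and 0.26 for 9 and over. Of the 15716 genes, 1095 (6.97%) had a 95% interval within 1 log2 unit of no difference on the deposited scaling, 921 of them among the 2238 genes at 6 to 9, and 993 (6.32%) had one after re-centring. For the remaining genes of either scaling the interval reached past 1 log2 unit in 1 direction or both.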

How the data were processed

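Single two-cell embryos were sequenced by the authors after Smart-seq2 amplification and Nextera XT library preparation. Reads were trimmed (Trim Galore 0.6.5, cutadapt 2.3) and mapped to GRCm38 (HISAT2 2.1.0), kept at a mapping quality of 20 or more, and counted on either strand over mRNA probes in SeqMonk. What the authors deposited is log2 RPM per embryo for 35269 probes. Genes without reads stand at the value of 0.9 read, so their value depends on depth. Whole reads were recovered for 99.9992% of the values above that floor (tolerance 0.05 read).

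Here limma 3.58.1 (R 4.3.3, trend) was fitted to log2 RPM of the 15 embryos, with litter and genotype as terms, for genes with a mean of at least 0, and p-values were adjusted by the Benjamini-Hochberg method over all genes (threshold 0.05). Since the values are log2 RPM, no count model was the main test, and limma voom on the recovered reads was an alternative. Its library sizes were scaled by the upper quartile of each embryo's reads over the genes fitted, so it changed the scaling too. The mating number in the labels marks a shared litter and was kept as a block. Single values were tested by exact permutation of genotypes within litters. Named genes were Dppa2 and Dppa4, the 10 smallest p in each direction at a mean of at least 3 log2 RPM, the 3 most abundant members of each list and any at an unadjusted p under 0.05, neighbours within 1 Mb, Duxf3 and 5 genes of the study, and up to 5 genes called in any alternative. Some genes that this rule names are not reported here. Members, lists and rules were chosen with earlier results of these data known. The major ZGA and 2C-like lists were compiled here and are not those of the study. They share members, Zscan4d and Zfp352 among them. Intervals on reads cover counting error only.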

Additional observations from a re-analysis of the deposited data

Results flagged for a closer look

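Tested genes under the naming rule (87 of them), total reads and genes with reads were screened in each genotype for 1 embryo standing far from the rest, by the gap to its nearest neighbour as a share of the range (Dixon's test at 95%). Of 178 groups, 14 held such an embryo, and litters were not separated in this screen. Chance alone flags about 1 in 20 groups, but that rate does not apply to genes named for their difference here, such as Trib3 and Sdf2l1, which were called in litter 2 against HET2e alone. HET2e was the low embryo among the heterozygous ones for Trib3 (-0.79 log2 RPM), Sdf2l1 (0.80), Tbx3 (3.74), Omt2a (10.73) and Omt2b (10.76), and HET2a the high one for Mapk8 (9.09). Within litter 2, the null embryos differed from HET2e by only -0.10 for Omt2a and 0.08 for Omt2b. Among null embryos HOMf was low for Cnnm4 (4.57) and Zfp397 (0.57), HOMd for Relb (1.10, no reads), HOMb for Ddx10 (0.35) and HOMj for Serinc1 (3.68). HOMa was low for Stk17b (1.52) and Gata4 (4.76) and high for Ptgs2 (3.84).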

How the results depend on the processing

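Dppa2 and Dppa4 left out, 0 genes were called whichever embryo was left out. Without HET2e the estimate rests on the 3 null and 4 heterozygous embryos of litter 1, so that 0 calls there says little of the genes tested. Calls appeared with voom on recovered reads (1, Spock3) and with litter 2 alone (10). At an unadjusted p under 0.05 the 905 genes became 446 at a mean of at least 3 log2 RPM (7160 tested), 2005 with array weights, 1364 with the litter as a random effect and 255 in litter 1 alone. Without the replicate block they became 1957 (1648 higher, 309 lower). Leaving out single embryos gave 414 (without HET2e) to 2055 (without HOMa). Genotype held 6.83 to 12.8% of the variance when single embryos were left out, and 7.74 to 9.65% under the other settings run, none with an exact p under 0.05. The median shares over exchanged genotypes were 7.14 to 7.86% and 6.73 to 7.48% in turn. The interaction of genotype and litter called 86 genes on the common floor (4 higher, 82 lower in litter 2) and 0 at a mean of at least 3 log2 RPM. The 44 named genes at an unadjusted p under 0.05 include Dppa2 and Dppa4. Those that turned direction were Lrr1 without the block (0.026), Serinc1 in litter 2 alone (-0.014) and Trib3 in litter 1 alone (-0.11). With single embryos left out, Trib3 ran from -0.11 to 2.84. Of all 89 named genes tested, Dppa2 and Dppa4 included, 14 turned in litter 1 alone and 5 in litter 2 alone. Re-centring took 0.41 off every gene and list median. Together with the common floor, an alternative chosen after seeing the data, it gave 129 higher and 896 lower. The causes were not tested. Standard errors were widest for genes below 3 log2 RPM, and litter 2 has 1 heterozygous embryo.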
